A study of Mus musculus with 4 samples.

Results

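The genes described here are 10 genes of the antioxidant defence, most of them known targets of the transcription factor NRF2, which were chosen by their symbols, Gpx1, Gpx2, Sod2, Cat, Gclc, Gclm, Txnrd1, Srxn1, Nqo1 and Hmox1. All 10 symbols were found among the 56748 genes of the count table, 1 row each, and all 10 had enough reads to be tested, as did 16094 genes in all. The small intestine (SI) of 2 p53+/+ mice (WT in the labels) and 2 p53-/- mice was sequenced at 1 day post 12 Gy total-body irradiation (TBI) with a Cs-137 γ-source. The mice of the study were 8 to 12 weeks old and matched for age and gender, and p53 was deficient in the whole animal, so that epithelium, muscle and immune cells of the p53-/- SI all lacked it. Every animal was irradiated, so the comparison is between genotypes after TBI and says nothing of a response to TBI itself.

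Cells remove superoxide with superoxide dismutases and the resulting hydrogen peroxide with catalase, glutathione peroxidases and peroxiredoxins. Glutathione peroxidases draw on the tripeptide glutathione, and peroxiredoxins draw on thioredoxin. NRF2, encoded by Nfe2l2, is held in the cytoplasm and degraded through KEAP1 and CUL3 in unstressed cells, and under oxidant or electrophile stress it pairs with small MAF proteins at antioxidant response elements (AREs) to induce many of these enzymes. p53 itself induces some antioxidant genes, among them the sestrins. In the gut, GPX2 is the glutathione peroxidase typical of the epithelium, and the mucosa also makes oxidants on purpose, with NOX1 and DUOX2 at the apical face of epithelial cells and the phagocyte NADPH oxidase in myeloid cells.

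The members' sequences near the transcription start are shown because an ARE is the feature that defines direct NRF2 targets. Promoter windows of 300 bases, from 250 before to 50 after the start, were matched in the RefSeq table of GRCm38.p6 for 8 of the 10 members, in 10 windows, 3 of them for Txnrd1. Gclc and Hmox1 had no entry. The ARE core was searched as TGACNNNGC on both strands and was present in 3 of the 10 windows and in 12.4% of all 32851 windows of the table. The stretches below hold these matches in capitals, each written on the strand of the gene, on which the core reads as its reverse complement. The Gclm stretch lies at chr3:122245377-122245476 (plus strand), with the match at -134 to -126 from the start. The Txnrd1 stretch lies at chr10:82859068-82859167 (plus strand), before the middle of its 3 starts, with the match at -92 to -84. The short Srxn1 stretch lies at chr2:152105542-152105571 (plus strand), with the match at 29 to 37 after the start.
Gclm: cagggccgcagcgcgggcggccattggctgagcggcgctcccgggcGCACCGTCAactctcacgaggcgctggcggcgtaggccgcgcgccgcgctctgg
Txnrd1: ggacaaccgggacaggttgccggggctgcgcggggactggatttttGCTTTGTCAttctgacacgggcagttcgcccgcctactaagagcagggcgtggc
Srxn1: gcagtgggcaGCTAGGTCAgagtgagacac

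An AP-1 site, TGANTCA on either strand, was found in 1 of the 10 windows, that of Srxn1, and in 7.81% of all windows. The Srxn1 promoter held it at -102 to -96 and again at -45 to -39, at chr2:152105402-152105505 (plus strand), with both sites in capitals here. Neither overlapped a match of TGACNNNGC, the only form of the ARE core that was searched. With the bases after it, the site at -45 to -39 reads TGAGTCAGC, which departs from that form at 1 letter, so an ARE of a looser form is not excluded there. The p53 response element, a pair of decamers, was found in 0 of the 10 windows and in 0.0731% of all. A match is a description of the letters and is no evidence of binding. Sequence outside the windows was not searched, so the lack of a match does not show that a member lacks an ARE.
Srxn1: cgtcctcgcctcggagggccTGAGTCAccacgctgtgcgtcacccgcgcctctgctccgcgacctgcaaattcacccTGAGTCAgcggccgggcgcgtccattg

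Each library gave between 15005479 and 22173164 counts, of which the 10 members together took between 0.177% and 0.234%. The unit of level is CPM, the usual library-scaled read count, after TMM normalization. The p53+/+ libraries are called 7 and 8 here and the p53-/- libraries 9 and 10, after their columns, and values follow that order. Trp53 was at 57.7 and 47.1 CPM in p53+/+ and at 19.8 and 22.5 CPM in p53-/- libraries, and the p53 target Phlda3 at 87.3 and 91.9 against 1.93 and 1.54 CPM, both lower in the libraries labelled p53-/-. Library 10 stood apart in 2 measures. Rn18s-rs5, a ribosomal RNA gene, took 4.59% of its counts and at most 0.863% of those of any other library, and 7 B cell markers summed to 465 CPM there against 22.6 CPM in library 9 and at most 1.82 CPM in p53+/+ libraries. Library 8 stood apart in smooth muscle, of which 5 markers summed to 3672 CPM there against 395, 855 and 583 CPM in libraries 7, 9 and 10. Each member is therefore also given without library 8 or 10 where that changes its direction. That the tissue held epithelium was borne out by the epithelial markers (Epcam, Cdh1, Cdh17, Vil1, Krt8, Krt18, Krt19, Cldn7, Cldn3 and Elf3), all counted in every library. The 10 enterocyte and 5 Paneth cell markers were also counted in every library. The epithelial markers summed to 25515 and 18473 CPM in p53+/+ and to 16776 and 13906 CPM in p53-/- libraries, and 9 of the 10 were lower in both p53-/- libraries than in both p53+/+ libraries.

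In the p53-/- SI, 6 of the 10 members (Gclc, Gclm, Srxn1, Cat, Txnrd1 and Nqo1) were lower in both libraries than in either p53+/+ library, none was higher in both, and the other 4 (Gpx1, Gpx2, Sod2 and Hmox1) overlapped. Groups did not overlap in that direction for 24.4% of all genes tested. The threshold was an adjusted p of 0.05 in the quasi-likelihood test of edgeR, with Benjamini-Hochberg adjustment over all genes, and 0 members passed it as higher (0.298% of all genes did) and 0 as lower (0.193% of all genes, 0.491% in either direction). The smallest adjusted p among the members was 0.177. Before adjustment, 4 members had a p under 0.05 in that test (Gclc, Cat, Gclm and Srxn1), all with lower values, and 0 with higher values, against 7.92% and 10% of all genes. DESeq2 called 3 members lower (Cat, Gclc and Srxn1) and 0 higher, against 663 lower and 812 higher of all 16094 genes (9.16% in either direction). The likelihood ratio test of edgeR called 0 members and 8.05% of all genes. The log2 fold change was below 0 for 6 members and for 50.7% of all genes, and scaling to epithelial markers turned it above 0 for Txnrd1 and Nqo1. The median log2 fold change was -0.39 over the 10 members and -0.01 over all genes tested. Without regard to sign, the median log2 fold change was 0.39 over the members and 0.35 over all genes, and the largest, -0.78 for Gclc, exceeded 76.9% of all genes in size. In whole tissue, fewer cells of a type and less RNA per cell cannot be told apart.

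**Figure D1:**
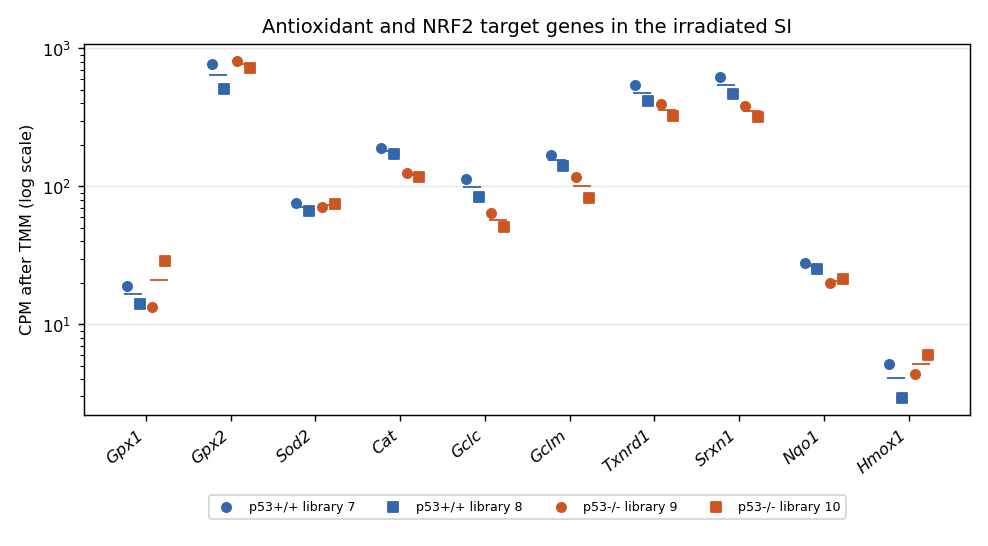
Levels of the 10 antioxidant and NRF2 target genes in CPM after TMM normalization (log scale), 1 point per library, with the p53+/+ libraries in blue, the p53-/- libraries in orange and a bar at the mean of the 2 libraries of a genotype. Both orange points lie below both blue points for Cat, Gclc, Gclm, Txnrd1, Srxn1 and Nqo1, and the groups overlap for the other 4 genes.

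Glutathione synthesis held the largest log2 fold change among the members. Gclc encodes the catalytic subunit of glutamate-cysteine ligase, which carries out the rate-limiting step of glutathione synthesis. Gclc was at 113 and 83.3 CPM in p53+/+ libraries and at 64.3 and 50.5 CPM in p53-/- libraries. Both p53-/- values lay below both p53+/+ values. The log2 fold change was -0.78 (standard error 0.224, 95% interval -1.34 to -0.21), with an edgeR adjusted p of 0.177 and a DESeq2 adjusted p of 0.0382. Gclm encodes the modifier subunit of the same enzyme, which raises its efficiency. Gclm was at 168 and 141 CPM in p53+/+ libraries and at 118 and 82.4 CPM in p53-/- libraries, again without overlap. Its log2 fold change was -0.63 (standard error 0.233, interval -1.21 to -0.05), with an edgeR adjusted p of 0.251 and a DESeq2 adjusted p of 0.105. Within a library, where scaling plays no part, the ratio of Gclc to Gclm per exon length was 1.13 and 0.984 in p53+/+ and 0.914 and 1.02 in p53-/- libraries, so the ratio overlapped between genotypes. Its size depends on the length used and does not show equal levels of the subunits. Per median length of coding transcripts, the mean over libraries was 22.7 CPM per kb for Gclc and 127 for Gclm. In the GENCODE M21 annotation the exons of Gclm overlap those of Gm17494 on the other strand and of Gm6061, which had at most 6 and 0 counts in any library. How reads in the overlaps were counted was not examined.

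Both members that act on thioredoxin and peroxiredoxins had lower values in both p53-/- libraries. Srxn1 encodes sulfiredoxin, which restores overoxidized peroxiredoxins, and is the member with the AP-1 sites printed above. Srxn1 was at 620 and 468 CPM in p53+/+ libraries and at 381 and 321 CPM in p53-/- libraries. The groups were separate, the log2 fold change being -0.63 (standard error 0.242, interval -1.24 to -0.02), with adjusted p-values of 0.263 by edgeR and 0.0452 by DESeq2. Txnrd1 encodes the cytosolic thioredoxin reductase, a selenoprotein that passes electrons from NADPH to thioredoxin. Txnrd1 was at 541 and 414 CPM in p53+/+ libraries and at 396 and 322 CPM in p53-/- libraries. Library 8 lay just above library 9, and the log2 fold change of -0.41 (standard error 0.242) had an interval from -1.02 to 0.19 that included 0. The ratio of Srxn1 to Txnrd1 per exon length was 2.88 and 2.84 in p53+/+ against 2.42 and 2.51 in p53-/- libraries, separate between genotypes. With 2 libraries per genotype such a separation is common, since single genes were separate as higher in 26.4% and as lower in 24.4% of cases. No share over pairs of genes was computed.

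Of the enzymes that act on superoxide and hydrogen peroxide directly, Cat had lower values without overlap and Sod2 overlapped. Cat encodes catalase, the peroxisomal enzyme that splits hydrogen peroxide. Cat was at 188 and 172 CPM in p53+/+ libraries and at 124 and 117 CPM in p53-/- libraries. Its 2 libraries of a genotype lay close together, and the log2 fold change was -0.58 (standard error 0.168, interval -0.998 to -0.16), with adjusted p-values of 0.178 by edgeR and 0.0139 by DESeq2. Sod2 encodes the mitochondrial manganese superoxide dismutase, known also as a target of NF-κB. Sod2 was at 76.3 and 66.1 CPM in p53+/+ libraries and at 70.8 and 74.6 CPM in p53-/- libraries. The p53-/- values lay inside the p53+/+ range, and the interval of the log2 fold change, -0.37 to 0.43 around 0.03, was the narrowest of the 10 members. Without library 8 the value was -0.08. Sod1, the cytosolic enzyme, was at 305 and 210 against 182 and 218 CPM, so that the ratio of Sod2 to Sod1 per exon length was 0.0991 and 0.125 in p53+/+ and 0.154 and 0.136 in p53-/- libraries, separate between genotypes although neither gene was. How often ratios of other gene pairs separate was not computed.

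The glutathione peroxidases went the other way in their means, without separating. Gpx2 encodes the gastrointestinal glutathione peroxidase of epithelial cells. Gpx2 was at 769 and 505 CPM in p53+/+ libraries and at 813 and 723 CPM in p53-/- libraries. The low value was that of p53+/+ library 8, and the log2 fold change was 0.27 (standard error 0.285, interval -0.44 to 0.98). Without library 8, in which the smooth muscle markers were highest, it was -0.01, and their part in it was not tested. Gpx1 encodes the glutathione peroxidase found in most cells. Gpx1 was at 19.1 and 14.01 CPM in p53+/+ libraries and at 13.3 and 28.8 CPM in p53-/- libraries. The high value was that of library 10, in which the B cell markers and Rn18s-rs5 were also highest, and the part of either in it was not tested. The log2 fold change of 0.35 (standard error 0.416, interval -0.70 to 1.39) became -0.26 without that library. Cat and Gpx2, which both remove hydrogen peroxide, stood in a ratio per exon length of 0.302 and 0.419 in p53+/+ and of 0.189 and 0.199 in p53-/- libraries. Reads of Gpx2 could be shared with the pseudogene Gpx2-ps1, which had at most 7 counts in any library. Reads matching both were not examined, so that count does not show how many were shared.

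Nqo1 and Hmox1, often used as readouts of NRF2, had low counts beside most other members. Nqo1 encodes a quinone reductase that spares cells the redox cycling of quinones. Nqo1 was at 27.8 and 25.04 CPM in p53+/+ libraries and at 19.8 and 21.4 CPM in p53-/- libraries. The groups were separate by a small gap, and the log2 fold change of -0.36 (standard error 0.193, interval -0.84 to 0.13) had an unadjusted p of 0.118 in the edgeR test. Hmox1 encodes the inducible heme oxygenase, which is abundant in macrophages. Hmox1 had 84 and 45 counts in p53+/+ libraries and 99 and 121 in p53-/- libraries, or 5.20 and 2.92 against 4.34 and 6.02 CPM. With these low counts the interval of its log2 fold change was the widest of the 10, from -0.81 to 1.51 around 0.35, so that differences of over 2-fold upward lie inside it. The 8 macrophage markers summed to 59.8 and 173 CPM in p53+/+ and to 217 and 296 CPM in p53-/- libraries, and 7 of the 8 were higher in both p53-/- libraries, while Hmox1 overlapped. Without library 8, the log2 fold change of Hmox1 was -0.01.

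**Figure D2:**
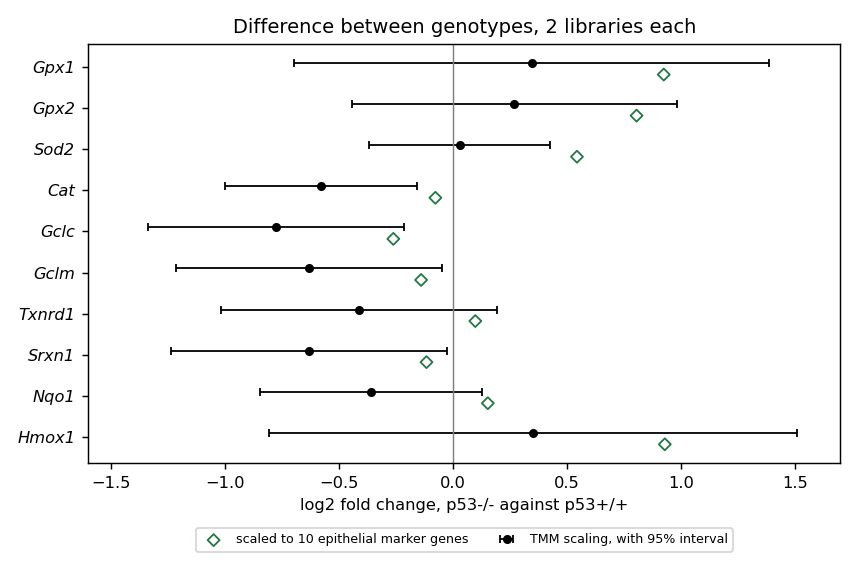
Log2 fold changes of the 10 members, p53-/- against p53+/+ (2 libraries each). Black points with bars are edgeR estimates after TMM normalization with 95% intervals, and open green diamonds are the estimates with libraries scaled to 10 epithelial marker genes. The intervals of Gclc, Cat, Gclm and Srxn1 lie below 0, and every diamond lies to the right of its black point.

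As 1 measure of the epithelial share of each library, the members were also set against the summed counts of the 10 epithelial markers. Sums of single epithelial cell types did not all follow that sum. The 10 enterocyte markers summed to 18401 and 20290 CPM in p53+/+ and to 18367 and 14088 CPM in p53-/- libraries, 6 of them overlapping. The 6 goblet cell markers fell in the order of the epithelial sum (18407.5 and 15784 against 13727 and 11526 CPM). The 5 Paneth cell markers summed to 10155 and 6946 against 11785 and 13739 CPM. Per 1000 epithelial counts, Gclc was at 4.44 and 4.51 in p53+/+ and at 3.83 and 3.63 in p53-/- libraries. Srxn1 was at 24.3 and 25.3 against 22.7 and 23.1. These 2 members were still lower in both p53-/- libraries, by smaller margins, as were 4.95% of all genes on this scale. Cat (7.38 and 9.29 against 7.41 and 8.39), Gclm and Nqo1 overlapped on this scale. The remaining 5 members lay higher in both p53-/- libraries, a share near the 55.2% of all genes that did so on this scale, among them Gpx2, at 30.1 and 27.3 against 48.4 and 52.0, and Txnrd1, at 21.2 and 22.4 against 23.6 and 23.1. This scaling moved the median log2 fold change of all genes to 0.49. It left Gclc at -0.26, Gclm at -0.14, Srxn1 at -0.12 and Cat at -0.08, with Gpx2 at 0.81, Sod2 at 0.54, Nqo1 at 0.15 and Txnrd1 at 0.10, and no member passed the threshold. All 10 members and all 10 epithelial markers were higher in library 7 than in library 8, against 55.1% of all genes, and 5 members (Cat, Gclc, Gclm, Txnrd1 and Srxn1) and 8 epithelial markers took the same order of libraries, 7 over 8 over 9 over 10, against 11% of all genes. The part of the epithelial share in the lower values of these members was not tested beyond this scaling.

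Levels of different genes were compared per length of merged exons from GENCODE M21. Gpx2 was highest, with a mean of 218 CPM per kb over the 4 libraries, followed by Srxn1 with 159, and their ranges overlapped (157 to 252 and 114 to 220). Txnrd1 and Cat followed at 59.0 and 57.5 CPM per kb, below Srxn1 in every library and with ranges that overlapped each other. Gclc, Gclm, Nqo1 and Gpx1 formed a run of overlapping neighbours with means of 20.7, 20.2, 15.1 and 13.04 CPM per kb. Sod2 (7.19 CPM per kb) and Hmox1 (2.64 CPM per kb) were lowest, each with a range apart from its neighbours. Merged exons include long or retained stretches for several members. Those of Gpx2 form 1 block of 3222 bases, against a median coding transcript of 1067 bases. By the median length of coding transcripts, Gpx2 was at 473 to 762 CPM per kb and Srxn1 at 114 to 220, without overlap. The overlap of these 2 genes given above therefore depends on the length used. By transcript length, Gclm moved from place 6 to 3, Sod2 from 9 to 7 and Gpx1 from 8 to 6. Gclc fell from place 5 to 8, Nqo1 from 7 to 9, Txnrd1 from 3 to 4 and Cat from 4 to 5. Gpx2, Srxn1 and Hmox1 kept places 1, 2 and 10.

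The regulators of NRF2 were described as a list of 9 genes, drawn up, like the other lists here, with earlier results of these data known. Its counts beside those of all genes are therefore description only. Of the 9 genes, 9 had a log2 fold change below 0 (50.7% of all genes) and 0 passed the threshold. An unadjusted edgeR p under 0.05 was found for 4 as lower (7.92% of all genes), and DESeq2 called 3 lower (663 of all 16094 genes). The median was -0.54, against -0.01 for all genes, although for Keap1 and Cul3 the sign turned under 9 of 15 alternatives each. Nfe2l2, which encodes NRF2, was at 158 and 158 CPM in p53+/+ libraries and at 89.5 and 87.6 CPM in p53-/- libraries. The libraries of a genotype differed by little, and both p53-/- values lay below both p53+/+ values. The log2 fold change was -0.83 (standard error 0.156, interval -1.22 to -0.44), with adjusted p-values of 0.101 by edgeR and 4.91e-05 by DESeq2. Scaled to epithelial markers it was -0.34 (edgeR adjusted p = 0.440), on a scale that moved the median of all genes from -0.01 to 0.49. Maff, a small MAF partner induced by stress and cytokines, was at 47.2 and 60.0 against 15.4 and 19.5 CPM, a log2 fold change of -1.62 (edgeR adjusted p = 0.0569, DESeq2 adjusted p = 1.23e-06). That value was -1.14 when scaled to epithelial markers. Keap1 was at 66.8 and 56.5 CPM in p53+/+ and at 64.2 and 56.4 CPM in p53-/- libraries, and its log2 fold change of -0.03 had an interval from -0.46 to 0.39. Cul3, the ubiquitin ligase scaffold, had the highest value of the list, -0.02.

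Around the members, the other antioxidant lists spread to both sides. Over all 90 other genes of the pathway lists, 89 were tested, 2 were higher and 1 lower past the threshold, and the median log2 fold change was -0.03. The gene called lower was Sesn2, which encodes sestrin 2, a p53-inducible protein that promotes the return of overoxidized peroxiredoxins and the breakdown of KEAP1. Sesn2 was at 54.2 and 52.6 CPM in p53+/+ libraries and at 16.7 and 12.6 CPM in p53-/- libraries. Its log2 fold change was -1.86 (standard error 0.205, edgeR adjusted p = 0.0444). The log2 fold change was -2.08 without library 9 and -1.62 without library 10, but the call was lost in each case (edgeR adjusted p = 0.0698 and 0.322), and it was also lost under 6 other settings, among them scaling by library size only (edgeR adjusted p = 0.0668). Of the 7 p53 targets with antioxidant products, it was the only gene past the threshold, and Sesn1, at 91.4 and 97.6 against 96.2 and 91.7 CPM, overlapped with a log2 fold change of -0.01 whose sign turned under 9 of 15 alternatives.

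Of the 10 genes that supply and recycle glutathione, 0 passed the threshold, 4 had an unadjusted edgeR p under 0.05, and DESeq2 called 1 higher and 2 lower. Over all 16094 genes, 10% had such a p as higher and 7.92% as lower, and DESeq2 called 812 higher and 663 lower. The highest was Slc7a11, the cystine transporter subunit, with 20 and 23 counts in p53+/+ libraries and 57 and 234 in p53-/- libraries (log2 fold change 2.37, edgeR adjusted p = 0.223). Most of that value lay in library 10, and it was 0.92 without it and 3.08 without library 9. Slc3a2, the partner chain of that transporter and of other amino acid transporters, was lowest, at 339 and 255 against 181 and 180 CPM (log2 fold change -0.72, edgeR adjusted p = 0.186). Of the 11 thioredoxins and peroxiredoxins, the extremes were the endoplasmic reticulum peroxiredoxin Prdx4, at 10.1 and 7.20 against 13.7 and 20.05 CPM (0.96), and the mitochondrial reductase Txnrd2, at 18.9 and 13.3 against 10.5 and 10.5 CPM (-0.61). Among the 7 genes of NADPH supply, Taldo1 of the pentose phosphate pathway was lowest, at 1040 and 798 against 580 and 571 CPM (-0.67), and the mitochondrial Idh2 highest (0.34). Of these 2 lists, 0 genes passed the threshold, 1 and 2 had an unadjusted edgeR p under 0.05, and DESeq2 called 0 and 2.

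Among the 15 other NRF2 targets 0 passed the threshold, and the median log2 fold change was -0.33. An unadjusted edgeR p under 0.05 was found for 1 as higher and 5 as lower, against 10% and 7.92% of all genes. DESeq2 called 1 higher and 4 lower, against 812 and 663 of all 16094 genes. Without overlap, 8 genes were lower in both p53-/- libraries and 2 higher in both, against 24.4% and 26.4% of all genes. Ephx1, the microsomal epoxide hydrolase, was lowest, at 77.3 and 77.3 CPM in p53+/+ and 4.38 and 14.5 CPM in p53-/- libraries (log2 fold change -3.04, edgeR adjusted p = 0.0946, DESeq2 adjusted p = 2.88e-07). That value was -2.42 without library 9 and -4.09 without library 10. Abcc3, an export pump for conjugates, was highest, at 61.1 and 62.1 against 135 and 105 CPM (0.96, edgeR adjusted p = 0.103). Gpx4, the phospholipid peroxide reductase, was lowest of the 4 other glutathione peroxidases, at 287 and 201 against 130 and 173 CPM (-0.69), and Gpx7 highest (0.55). Sod1 and Sod3 had log2 fold changes of -0.37 and 1.22, with overlapping groups for both, and the value of Sod3 was 0.30 without library 10 and 2.18 without library 8. Of the 6 genes of selenoprotein synthesis, on which Gpx1, Gpx2 and Txnrd1 depend, the extremes were Sephs2 (0.37) and the selenium carrier Selenop (-0.55). Of these last 3 lists, 0 genes passed the threshold, 1 (Gpx4) had an unadjusted edgeR p under 0.05, and DESeq2 called 0.

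**Figure D3:**
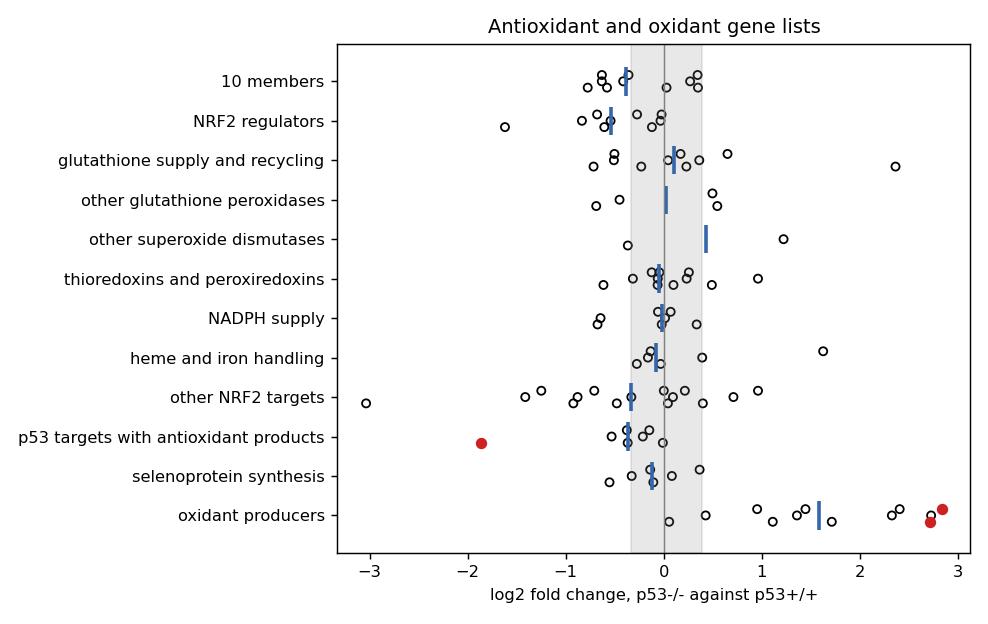
Log2 fold changes, p53-/- against p53+/+, of the tested genes of each list, 1 circle per gene, with genes past the threshold filled in red, the median of a list as a blue line and the 25th to 75th percentile of all genes tested shaded in gray. The 10 members and the NRF2 regulators lie mostly left of 0 without a filled circle, and the oxidant producers lie right of 0.

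Genes of oxidant-producing enzymes mostly had higher values in p53-/- libraries, and 2 of 12 tested were higher past the threshold (0.298% of all genes were). In both p53-/- libraries 10 of 12 were higher, as were 26.4% of all genes. A log2 fold change above 0 was found for 12 of 12 (49.3% of all genes), with a median of 1.58. This list too was drawn up with earlier results of these data known, so these counts are description only. Nox1, the NADPH oxidase of the gut epithelium, was at 7.05 and 7.07 CPM in p53+/+ libraries and at 57.4 and 43.6 CPM in p53-/- libraries. It rose by a log2 fold change of 2.84 (standard error 0.225, edgeR adjusted p = 0.0271). Duoxa2, which brings the oxidase DUOX2 to the cell surface, rose from 51.5 and 35.4 CPM to 316 and 254 CPM, by 2.71 on the log2 scale (standard error 0.264, edgeR adjusted p = 0.0352). Both calls were lost without library 9 (edgeR adjusted p = 0.0578 and 0.0570) and without library 10 (edgeR adjusted p = 0.189 for each), while the log2 fold changes stayed at 2.62 and 3.07 for Nox1 and at 2.54 and 2.92 for Duoxa2. Duox2 itself was at 224 and 236 against 941 and 569 CPM (log2 fold change 1.72, edgeR adjusted p = 0.0914), and Nos2, the inducible nitric oxide synthase, at 171 and 189 against 609 and 373 CPM (1.45, edgeR adjusted p = 0.106). Noxo1, the organizer of NOX1, had 19 and 20 against 37 and 19 counts and was the lowest of the list at 0.06. Nox4 had at most 8 counts and was not tested.

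Among the subunits of the phagocyte oxidase, Cybb, its catalytic chain, was at 3.47 and 10.97 CPM in p53+/+ libraries and at 22.97 and 53.6 CPM in p53-/- libraries, and Ncf1, a cytosolic subunit, at 1.61 and 5.06 against 7.49 and 36.8 CPM. In both genes library 10 was highest and library 7 lowest, which was also the order of the summed macrophage markers given above. The sums of T cell, B cell and red blood cell markers had that order as well, so the order points to no 1 cell type. The 8 T cell markers summed to 8.23 and 15.6 CPM in p53+/+ and to 70.4 and 132 CPM in p53-/- libraries, and all 8 were higher in both p53-/- libraries. The 6 neutrophil markers summed to 0.557 and 1.23 CPM in p53+/+ and to 3.86 and 3.28 CPM in p53-/- libraries, 4 of the 6 being higher in both p53-/- libraries and 0 lower, and 5 were at 0 in at least 1 library. Duoxa2 and Nox1 were higher in library 9 than in library 10, as were 7857 of all 16094 genes tested. The sums of epithelial, enterocyte, goblet cell and stem cell markers had that order too, and the Paneth cell sum had the opposite one. The 7 stem cell markers summed to 457 and 380 against 914 and 871 CPM, and 3 were higher in both p53-/- libraries and 2 lower. Their highest log2 fold change was 3.97, for Olfm4, and their median was 0.16. The part of any of these cells in the values of the oxidant producers was not tested.

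**Figure D4:**
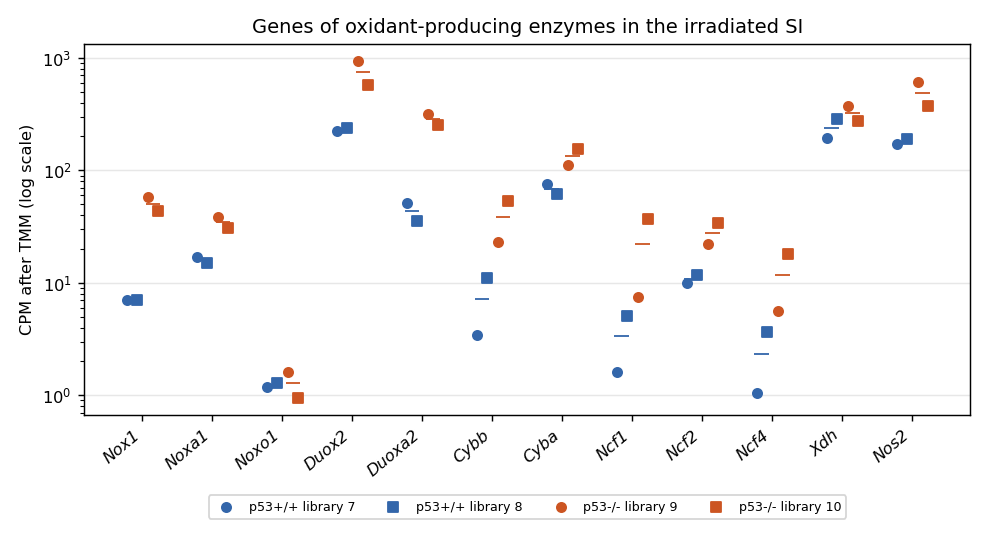
Levels of the 12 tested genes of oxidant-producing enzymes in CPM after TMM normalization (log scale), 1 point per library, with p53+/+ in blue, p53-/- in orange and a bar at the mean of a genotype. Both orange points lie above both blue points for 10 genes, and overlap is seen for Noxo1 and Xdh.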

How the data were processed

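RNA of the SI was purified by poly-T selection, sequenced and analysed by Novogene. The table deposited by the authors holds raw read counts, 1 row per gene, not normalized. Their processing notes name fastp, HISAT2 2.0.5, featureCounts 1.5.0-p3 and DESeq2 1.20.0, while genome build, annotation and strand setting are not given in the sources used here, so antisense reads could have been counted with a gene. Depth was 15005479 to 22173164 counts per library.

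From these counts, genes with few reads were removed by filterByExpr, libraries were scaled by TMM, and genotypes were compared with the quasi-likelihood test of edgeR 4.0.16 in R 4.3.3, two-sided, with Benjamini-Hochberg adjustment over 16094 genes (threshold 0.05). Intervals at 95% came from the standard error and the t distribution of the fit. The alternatives included DESeq2 1.42.0. The spread rests on 2 animals per genotype. The pair of libraries within each genotype was not a duplicate (chi-square per degree of freedom 48.0 and 69.5). Exon lengths from GENCODE M21 (GRCm38) were found for 91.8% of gene identifiers and all 10 members. On simulated data the fold changes were unbiased, but the test called no gene with a difference somewhat larger than those of the members, so the absence of calls among them carries little information, and among larger differences false calls exceeded the nominal rate.

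The members and lists were chosen with earlier results of these data known. Named were the members, Nfe2l2 and Keap1, list genes past the threshold and the highest and lowest of each list. Duox2, Nos2, Cybb, Ncf1, Fth1, Chac1, Gsr and Gss were chosen after their values were seen, and Trp53, Phlda3 and Rn18s-rs5 served as checks.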

Additional observations from a re-analysis of the deposited data

How the results depend on the processing

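No paired analysis was possible because the columns carry library numbers and none of the labels' replicate numbers. With 2 animals per genotype, few differences of the size seen in the members can pass, and the counts of calls moved widely with the method. Over all genes, 48 were higher and 31 lower; these counts became 26 and 20 with library size only, 29 and 20 with upper-quartile factors, 179 and 19 scaled to epithelial markers, 812 and 663 with DESeq2, 833 and 462 with the likelihood ratio test, 1259 and 614 without a filter, 24 and 18 over genes that had 10 counts or more in each library, 238 and 134 at an adjusted p of 0.1, and ranged from 0 to 680 and from 0 to 344 with 1 library left out, with 0 in both directions without library 10. Of the members, 3 were called lower with DESeq2 and 1, Gclc, without a filter. Of the other pathway genes, 2 were higher and 1 lower; these became 5 and 0 scaled to epithelial markers, 13 and 12 with DESeq2, 11 and 7 with the likelihood ratio test, 14 and 7 without a filter, and ranged from 0 to 5 and from 0 to 6 with 1 library left out, and the 1 lower became 0 with library size only, upper-quartile factors, at least 10 counts, the 50 most abundant genes left out or Rn18s-rs5 left out (chosen after seeing the data).

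Signs turned mostly where values were near 0. Log2 fold changes of Keap1, Cul3 and Sesn1 became 0.040, 0.051 and 0.055 with library size only, 0.022, 0.033 and 0.040 with upper-quartile factors, 0.47, 0.49 and 0.48 scaled to epithelial markers, 0.013, 0.023 and 0.033 without a filter, 0.012, 0.023 and 0.032 with the 50 most abundant genes left out, 0.013, 0.024 and 0.033 with Rn18s-rs5 left out, and 0.042, 0.053 and 0.060 with at least 10 counts. Scaling to epithelial markers, the only one of the scalings to move the median of all genes by over 0.1 (to 0.49), turned Txnrd1 to 0.10, Nqo1 to 0.15, Sod1 to 0.18 and Ftl1 to 0.29. With 1 library left out, the values ranged from -0.15 to 0.11 for Keap1, from -0.15 to 0.12 for Cul3, from -0.048 to 0.077 for Sesn1, from -0.58 to 0.11 for Ftl1, from -0.39 to 0.44 for Noxo1, from -0.0081 to 0.62 for Gpx2, from -0.077 to 0.14 for Sod2, from -0.013 to 0.83 for Hmox1 and from -0.26 to 0.79 for Gpx1. The causes of these shifts were not tested. Over all named genes and alternatives, 443 values kept their direction and side of the threshold, 31 gained a call, 12 lost one and 38 turned sign.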

Other observations

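Iron handling touches the same chemistry, since free iron turns hydrogen peroxide into hydroxyl radicals. Of 6 genes of heme and iron handling, 0 passed the threshold, and 1 had an unadjusted edgeR p under 0.05 and was called by DESeq2. Slc40a1, the iron exporter ferroportin, was highest, at 32.4 and 21.2 CPM in p53+/+ libraries and at 92.0 and 73.8 CPM in p53-/- libraries, without overlap (log2 fold change 1.63, edgeR adjusted p = 0.0744, DESeq2 adjusted p = 6.35e-06). The ferritin chains were level by comparison, with Fth1 at 1552 and 1257 against 1216 and 1535 CPM. Ftl1 was lowest of the list, at 688 and 432 against 411 and 515 CPM (-0.27).

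Chac1, an enzyme that breaks down glutathione, was picked for its spread: the p53+/+ pair had 180 and 11 counts and the p53-/- pair 135 and 150. Gsr, which returns oxidized glutathione to its reduced form and was likewise picked after its values were known, was at 276 and 217 CPM in p53+/+ and at 417 and 358 CPM in p53-/- libraries (log2 fold change 0.65, edgeR adjusted p = 0.224, DESeq2 adjusted p = 0.0321). It lay opposite to Gss, the second enzyme of glutathione synthesis, at 189 and 148 against 121 and 117 CPM (-0.50, edgeR adjusted p = 0.264).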
